A study of Mus musculus with 6 samples.

Results

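The 37 genes described here belong to the blood and lymphatic vessel wall and to the signals that direct vessel growth. They were given as a list of gene symbols with no threshold on a measured value, though earlier results of these data were known when it was drawn up, and all 37 were found by symbol among the 23420 genes in the table of embryonic mouse lungs at E11.5dpc (days post coitus). The list holds 7 ligands, 11 receptors and receptor components, 8 transcription factors, 9 surface and junction proteins and 2 matrix proteins.

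The study removed *Rptor*, which encodes the RAPTOR subunit of mTOR complex 1 (mTORC1, a kinase complex that promotes cell growth), from the lung epithelium and measured RNA of whole lungs by sequencing. The 3 control pools had the genotype Raptorf/+; ShhCre/+ and the 3 mutant pools Raptorf/f; ShhCre/+. Both groups carried ShhCre and at least 1 floxed *Raptor* allele, so that the control was heterozygous where Cre acted and no Cre-negative lungs were compared. Each pool combined 3 or 4 lungs. ShhCre acts in the epithelium and not in endothelial cells, so the endothelial cells were not targeted, and their RNA was measured mixed with that of all other lung cell types.

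Endothelial cells line blood and lymphatic vessels, and in the early lung their plexus grows around the branching epithelium. VEGF ligands, made largely by epithelial and mesenchymal cells, act on receptor tyrosine kinases of the endothelium, while angiopoietins act on TEK and its relative TIE1 to adjust the stability of vessels. Sprouting cells make apelin, whose receptor is carried by neighbouring and venous endothelium, and transcription factors of the SOX, ETS and other families set and maintain endothelial identity.

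The deposited values were normalized counts, which are read counts per gene divided by one size factor per library. Their totals lay between 20705058 and 20865998 per library, and the read counts recovered from them between 20197642 and 21276090. *Rptor* itself was at 2199 ± 77.0 in control and 2103 ± 69.1 in mutant pools (mean ± SD, n = 3 each), with overlapping groups (log2 difference -0.06, limma adjusted p = 0.584), as measured over the whole gene in whole lungs. Of 17168 genes tested with limma, 86 passed an adjusted p of 0.05 (0.501%), of which 32 were higher in mutant pools (0.186%) and 54 lower (0.315%). The p-values measure the spread between pools of different lungs, 3 to a group.

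None of the 37 genes passed the adjusted threshold, by limma (0 of 37) or by edgeR on the recovered reads (0 of 36, *Etv2* being too low to test). Their differences were nonetheless mostly to one side, since 33 of the 37 (89.2%) had a higher mean log2 value in mutant than in control pools, against 49.5% of all genes tested. The 33 include *Etv2*, at 0.0029 and too low to read. All members were measured in the same 6 pools, so these counts are not of 37 separate observations. At an unadjusted p under 0.05, 13 of the 37 (35.1%) were higher in mutant pools and 0 were lower, where 6.67% of all genes tested were higher and 6.89% lower. edgeR gave the same numbers, 13 and 0. At an unadjusted p under 0.01, 6 were higher, against 2.32% of all genes tested. The median log2 difference was 0.14 over the members and -0.0021 over all genes tested, with a range from -0.20 for *Apln*, the apelin gene, to 0.43 for *Lyve1*, a receptor of lymphatic endothelium. In 12 of the members the 3 mutant pools all lay above the 3 control pools, and in 0 all below, where 9.77% and 10.5% of all genes tested did so. Leaving out mutant pool 3 lowered the count of 13 to 7, beside 4.28% of all genes higher in that fit. RNA of whole lungs cannot tell apart more endothelial cells, more RNA of these genes per endothelial cell and a smaller share of RNA from other cell types. Normalized counts are relative to the whole library, and the median log2 difference of epithelial markers was -0.41. The part of each was not tested.

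**Figure D1:**
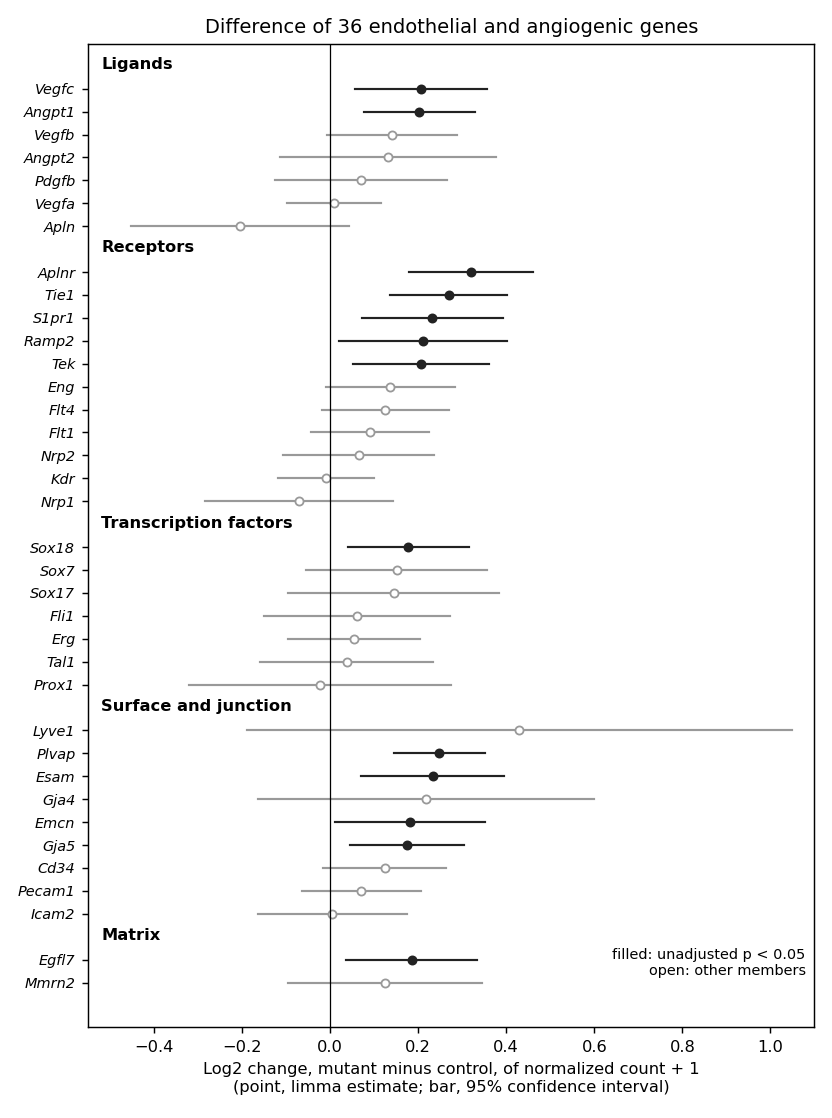
Log2 difference of 36 members between mutant and control pools (horizontal axis, mutant minus control, of normalized count plus 1), grouped by role. Points are limma estimates from 3 pools per group and bars are 95% confidence intervals. *Etv2*, near 0 counts in every pool, is not drawn. Most points lie to the right of 0, with *Apln* at -0.20 farthest to the left and *Lyve1* at 0.43, with the widest bar, farthest to the right.

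The defining endothelial markers *Pecam1*, *Tie1* and *Cd34* were detected in all 6 pools. Levels were compared between genes as normalized counts per kilobase of annotated exon (GENCODE M21, GRCm38), in the control pools. *Vegfb*, a VEGF ligand of broad expression, stood highest at 847, followed by *Plvap*, which encodes a protein of endothelial fenestrae and caveolae, at 804. *Aplnr*, *Sox18* and *Vegfa* followed at 660, 563 and 500.4 per kilobase, and *Pecam1*, the pan-endothelial adhesion gene, was at 312. Lowest were *Flt1* at 49.7, *Prox1*, the regulator of lymphatic fate, at 15.6 and *Etv2*, which acts at the first specification of endothelium, at 1.57. *Etv2* had a normalized count of at most 2.95 in any pool, and no difference could be read at that level. The summed normalized count of the 37 members was 37981 to 39153 in the control pools and 41078 to 42964 in the mutant pools, without overlap. Such a sum is weighted toward genes of high count. It was not particular to the members, since most of the other lists described below also had sums without overlap. Those of the other endothelial genes were 38007 to 39283 and 41316 to 42182, and those of the further angiogenic genes 86963 to 90711 and 92631 to 92907. Macrophage, erythroid and neural crest sums overlapped.

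Among the 11 receptors, 5 were higher in mutant pools at an unadjusted p under 0.05 and 0 were lower, with 9 of 11 log2 differences above 0 and a median of 0.14. Over all genes tested 6.67% were higher and 6.89% lower at that threshold, and the counts of the other roles stand beside the same shares. *Aplnr*, the apelin receptor (chr2:85136225-85139923, plus strand), was at 2472, 2649.9 and 2199.6 normalized counts in control pools 1, 2 and 3 and at 2957, 3108 and 3054 in mutant pools 1, 2 and 3. All mutant pools lay above all control pools, with control pool 3 the lowest. The difference was 0.32 on the log2 scale (standard error 0.06), or 1.25-fold, and did not pass the adjusted threshold (limma adjusted p = 0.0661). Without control pool 2 the limma adjusted p of *Aplnr* was 0.0253 and without control pool 3 it was 0.0112. Without mutant pool 3 it was 0.33, and with all pools but without the limma trend it was 0.297. The call thus turned on which pools entered and on the fit.

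Neither TIE receptor overlapped between groups. *Tie1*, an orphan receptor that modulates TEK (chr4:118471191-118490061, minus strand), was at 2066, 2257 and 1895 in control pools 1 to 3 and at 2474, 2501 and 2503 in mutant pools 1 to 3. The mutant pools stayed within a narrow band (SD 16.4) while the control pools spread widely (SD 181). On the log2 scale they differed by 0.27 (standard error 0.06). The limma adjusted p was 0.0922 with all pools, 0.0287 without control pool 2 and 0.0301 without control pool 3. It was 0.391 without mutant pool 3, and 0.329 with all pools but without the limma trend. *Tek*, the angiopoietin receptor (chr4:94739289-94874976, plus strand), was at 855, 894 and 906 in the control pools and at 1126, 938 and 1006 in the mutant pools. Here mutant pool 1 stood well above the rest and mutant pool 2 only just above the highest control pool. *Tek* differed by 0.21 on the log2 scale (standard error 0.07, limma adjusted p = 0.225).

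The VEGF receptor genes *Kdr*, *Flt1* and *Flt4* overlapped between groups. Of these, only *Kdr* had a 95% confidence interval that left out the point estimate of *Tek* (log2 difference 0.21). The interval of *Tek* itself, from 0.05 to 0.36, overlapped that of *Kdr*, and these genes were not tested against each other. *Kdr*, the main signalling receptor of VEGFA in blood endothelium (chr5:75932827-75978458, minus strand), lay between 2361 and 2610 in control pools and between 2386 and 2495 in mutant pools, fully overlapping. Its log2 difference was -0.0088, with a 95% confidence interval from -0.12 to 0.10. *Flt1*, which binds VEGFA and limits its action (chr5:147561604-147726011, minus strand), was at 671 ± 27.1 in control and 715 ± 26.1 in mutant pools (mean ± SD, n = 3 each), with overlapping groups and an interval from -0.04 to 0.23 on the log2 scale. *Flt4*, the receptor of VEGFC that marks lymphatic and angiogenic endothelium, was at 1126 ± 96.4 in control and 1226 ± 28.5 in mutant pools. Its log2 difference was 0.13 (limma adjusted p = 0.431), with an interval from -0.02 to 0.27.

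The neuropilins, co-receptors of VEGFs and semaphorins that mesenchymal and neural cells also carry, overlapped between groups. *Nrp2*, the receptor gene with the highest mean count, was at 3211, 3065 and 3836 in the control pools and at 3667, 3306 and 3561 in the mutant pools. Control pool 3 was the highest of the 6 and control pool 2 the lowest. Its log2 difference was 0.06 (limma adjusted p = 0.759), and that of *Nrp1* was -0.07 (limma adjusted p = 0.79).

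*S1pr1*, a receptor of sphingosine phosphate that restrains sprouting, was at 466, 467 and 428 in the control pools and at 568, 514 and 517 in the mutant pools. The groups did not overlap, and mutant pool 1 was the highest (log2 difference 0.23, limma adjusted p = 0.193). *Ramp2*, which partners the adrenomedullin receptor, was at 1257, 1362 and 1038 in the control pools and at 1366, 1429.5 and 1408 in the mutant pools. The lowest mutant pool was level with the highest control pool, and control pool 3 stood apart at the low end. Its log2 difference was 0.21 (limma adjusted p = 0.32) and 0.10 without control pool 3. *Ramp2* shares 1103 exonic bases on the same strand with *Vps25*, so that reads there could belong to either gene. *Eng*, a co-receptor of BMP and TGF-β ligands, was at 1919 ± 172 in control and 2106 ± 97.0 in mutant pools with overlap (log2 difference 0.14, limma adjusted p = 0.399).

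The 250 bases before the RefSeq start of 3 of these receptor genes are given to set *Tek*, higher in every mutant pool, beside a pair that overlapped between groups (*Kdr*, *Flt1*). The sequences are from RefSeq (GRCm38.p6) and are written 5′ to 3′ in the direction of transcription, and capitals mark CAGGAA or AGGAAG on either strand (TTCCTG and CTTCCT on the strand shown). These letters contain the GGAA core bound by ETS factors, the family of *Erg*, *Fli1* and *Etv2*, and the motifs share AGGAA and can overlap. The windows lie at chr4:94739039-94739288 for *Tek*, chr5:75978456-75978705 for *Kdr* and chr5:147726012-147726261 for *Flt1*. The gene spans given above are those of GENCODE, and 3 bases of the *Kdr* window lie inside its span, against 0 for *Tek* and *Flt1*.
Tek: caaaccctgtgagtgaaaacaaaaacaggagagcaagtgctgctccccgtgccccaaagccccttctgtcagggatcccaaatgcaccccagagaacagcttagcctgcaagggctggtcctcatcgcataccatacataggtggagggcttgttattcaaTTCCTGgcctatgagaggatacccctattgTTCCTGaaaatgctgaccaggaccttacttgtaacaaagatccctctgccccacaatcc
Kdr: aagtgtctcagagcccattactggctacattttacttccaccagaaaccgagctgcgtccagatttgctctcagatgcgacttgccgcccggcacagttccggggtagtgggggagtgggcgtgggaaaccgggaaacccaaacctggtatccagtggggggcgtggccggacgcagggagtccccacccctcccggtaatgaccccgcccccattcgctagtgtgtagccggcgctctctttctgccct
Flt1: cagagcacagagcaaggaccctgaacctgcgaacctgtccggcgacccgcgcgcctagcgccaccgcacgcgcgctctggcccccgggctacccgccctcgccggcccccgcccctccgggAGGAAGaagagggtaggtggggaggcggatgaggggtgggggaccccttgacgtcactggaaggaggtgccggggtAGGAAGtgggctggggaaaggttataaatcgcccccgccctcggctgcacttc
The windows of *Tek* and *Flt1* each held 2 matches and that of *Kdr* 0. These counts cover the 2 hexamers only, and the *Kdr* window does hold the GGAA core in other contexts (such as acttcc and gggaaa). Either motif stood in 41.2% of all 32851 windows of this length and in 16 of the 28 windows of the 21 members matched by symbol. CAGGAA alone stood in 25.7% of all windows and AGGAAG alone in 29.5%, and each stood in 12 of the 28. Both motifs were chosen after these shares were seen, and matches stood both in a receptor that was higher in every mutant pool (*Tek*) and in one that overlapped (*Flt1*).

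Of the 7 ligands, 6 had log2 differences above 0 (median 0.13), and 2 were higher at an unadjusted p under 0.05. *Angpt1*, the activating ligand of TEK, made mostly by mesenchymal and mural cells (chr15:42424723-42676977, minus strand), was at 647, 656 and 683 in control pools 1 to 3 and at 769, 736 and 780.3 in mutant pools 1 to 3. The groups were clearly apart, with little spread in either. The log2 difference was 0.20 (standard error 0.06, limma adjusted p = 0.159). *Angpt1* shares 737 exonic bases with the antisense gene *Gm17473* on the opposite strand. *Vegfc*, the ligand of FLT4 that drives lymphatic growth (chr8:54077606-54187096, plus strand), was at 385, 382 and 375 in the control pools and at 438, 427 and 453 in the mutant pools. All mutant pools again lay above all control pools (log2 difference 0.21, limma adjusted p = 0.209).

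*Vegfa*, the principal ligand of KDR and the ligand with the highest mean count (chr17:46016993-46032369, minus strand), was at 2136, 2040.4 and 2255 in the control pools and at 2143, 2200.2 and 2125 in the mutant pools. The mutant pools lay inside the range of the control pools. Its log2 difference was 0.0091, with a 95% confidence interval from -0.10 to 0.12. *Vegfb* was at 1360.1 ± 114 in control and 1497 ± 76.0 in mutant pools (log2 difference 0.14, limma adjusted p = 0.394).

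*Angpt2*, which antagonizes or modulates TEK in remodelling vessels, and *Pdgfb*, which recruits pericytes, had log2 differences of 0.13 and 0.07 with overlapping groups. *Apln* was the only ligand lower in mutant pools by its mean, at 298 ± 41.2 in control and 257 ± 13.6 in mutant pools with overlap. Its log2 difference was -0.20, with a 95% confidence interval from -0.45 to 0.04 (limma adjusted p = 0.453), and it was -0.32 without control pool 3 (limma adjusted p = 0.0805).

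Among the 9 surface and junction proteins all 9 log2 differences lay above 0 (median 0.18), and 4 were higher at an unadjusted p under 0.05. *Plvap* (chr8:71497765-71511752, minus strand) had the lowest p of all members. It was at 1669, 1579.6 and 1545 in control pools 1 to 3 and at 1924, 1904 and 1862 in mutant pools 1 to 3, with means of 1598 ± 64.0 and 1897 ± 31.7 (SD, n = 3 each). The groups were separated by more than the spread of either. The log2 difference was 0.25 (standard error 0.05), or 1.19-fold, with a limma adjusted p of 0.0546, which was 0.0485 with upper-quartile scaling and 0.0202 without control pool 3. This limma adjusted p rose to as much as 0.269 when another pool was left out and 0.24 in another fit on all pools.

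*Esam*, an adhesion molecule of endothelial tight junctions, was at 693, 782 and 655 in the control pools and at 795, 853 and 851 in the mutant pools. The lowest mutant pool was just above the highest control pool (log2 difference 0.23, limma adjusted p = 0.195). *Gja5*, a gap junction gene of arterial endothelium, was at 610.0, 596 and 607 in the control pools and at 699.9, 653 and 695 in the mutant pools. Control pools were almost equal, and all mutant pools were above them (log2 difference 0.17, limma adjusted p = 0.222). *Gja5* shares 165 exonic bases with *Gpr89* on the opposite strand, and the strand setting of the counting was not given in the sources used here.

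*Emcn*, a sialomucin of venous and capillary endothelium, was the only one of the 13 whose groups overlapped. It was at 618, 662 and 645 in the control pools and at 787, 650.0 and 753 in the mutant pools. Mutant pool 2 lay among the control pools while the other mutant pools lay above them (log2 difference 0.18, limma adjusted p = 0.337).

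The remaining surface genes overlapped between groups and differed in spread. *Cd34*, a sialomucin of endothelial and progenitor cells with the highest mean count of this role, was at 2379, 2381 and 2601 in the control pools and at 2858, 2439 and 2734 in the mutant pools. Mutant pool 2 lay below control pool 3, and the log2 difference was 0.12 (limma adjusted p = 0.421). *Lyve1*, found on lymphatic endothelium and on some macrophages, was at 309, 373 and 148 in the control pools and at 317, 419.6 and 315 in the mutant pools. Control pool 3 stood far below the other 5 pools. The log2 difference of 0.43 had a 95% confidence interval from -0.19 to 1.05 and was 0.03 without control pool 3, in which macrophage markers were also low (median log2 deviation -0.31). The part of macrophages in it was not tested.

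*Pecam1* was at 1939.9 ± 162 in control and 2032 ± 41.1 in mutant pools, a log2 difference of 0.07 with an interval from -0.07 to 0.21. *Icam2*, an adhesion gene of resting endothelium, was at 345 to 351 in control and at 328 to 368 in mutant pools, a log2 difference of 0.0044 with an interval from -0.16 to 0.17. For both, the point estimate of *Plvap* (log2 0.25, 1.19-fold) lay outside the interval. The interval of *Plvap* itself ran from 0.14 to 0.35 and overlapped both. Whether these genes differed from *Plvap* was not tested. *Gja4*, another arterial gap junction gene, varied widely within both groups, at 315 ± 66.4 in control and 366 ± 73.6 in mutant pools.

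Of the 8 transcription factors 1 (12.5%) was higher at an unadjusted p under 0.05, where 6.67% of all genes tested were. The median log2 difference was 0.06. *Sox18*, which acts in vessel and early lymphatic development (chr2:181669836-181671640, minus strand), was at 928, 942 and 865 in control pools 1 to 3 and at 962, 1048 and 1086 in mutant pools 1 to 3. The groups did not overlap, though mutant pool 1 was close to control pool 2. The log2 difference was 0.18 (standard error 0.06, limma adjusted p = 0.241). Its relatives *Sox7* and *Sox17* had log2 differences of 0.15 and 0.14 with overlapping groups, where the control pools ran from 393 to 496 and from 260.4 to 344.

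The factors shared by endothelial and blood-forming cells had smaller differences, with overlapping groups. *Erg* was at 470.1 ± 8.25 in control and 488 ± 24.8 in mutant pools (log2 difference 0.05), *Fli1* at 685 ± 82.2 and 713 ± 70.4 (0.06) and *Tal1* at 487 ± 58.3 and 498 ± 18.9 (0.04), with limma adjusted p from 0.77 to 0.895. *Prox1* was at 131 ± 19.5 in control and 128 ± 1.05 in mutant pools, a log2 difference of -0.02 with an interval from -0.32 to 0.27.

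Of the matrix genes, *Egfl7*, which encodes a protein that endothelial cells secrete (chr2:26580014-26593120, plus strand), was at 1266, 1243 and 1098 in the control pools and at 1278, 1434 and 1385 in the mutant pools. Mutant pool 1 was barely above control pool 1, and control pool 3 was the lowest. *Egfl7* had a log2 difference of 0.18 (limma adjusted p = 0.255). It shares 264 exonic bases on the same strand with *Gm20532*, and fewer with *Agpat2* and with microRNA genes, so that reads there could belong to either gene. *Mmrn2*, which binds VEGFA in the endothelial matrix, was at 480.0 ± 50.0 in control and 524 ± 59.2 in mutant pools with overlap.

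**Figure D2:**
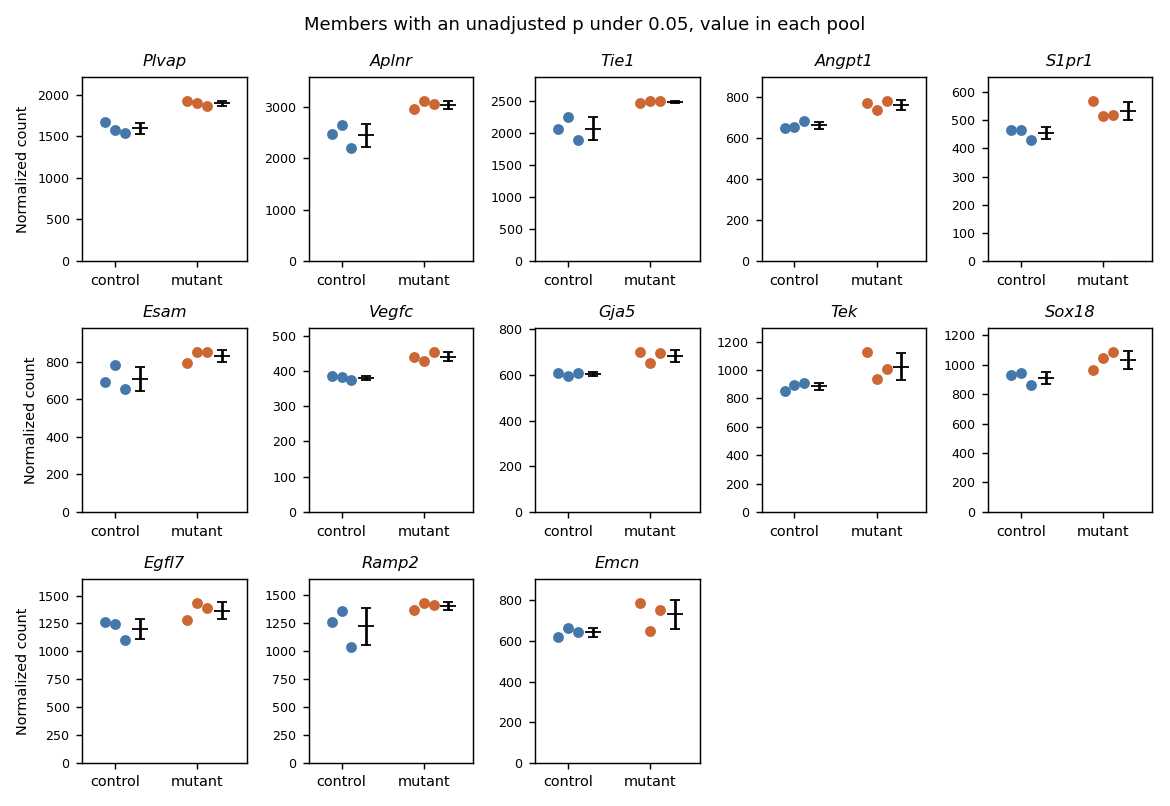
Normalized counts (vertical axes, from 0) of the 13 members higher in mutant pools at an unadjusted p under 0.05. Each point is 1 pool, 3 control and 3 mutant, and the bar beside them is the mean ± SD. In all but *Emcn* the mutant pools lie above the control pools, by 1.13-fold for *Gja5* and *Sox18* to 1.25-fold for *Aplnr*.

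Pairs of members were next compared within each pool, since the log2 ratio of 2 genes in 1 library does not depend on its size factor. Of 8 ratios, 2 separated the groups completely. Among single genes tested, 9.77% did so to the higher side and 10.5% to the lower. The log2 ratio of *Apln* to *Aplnr* was -2.94, -3.04 and -3.13 in control pools 1 to 3 and -3.47, -3.56 and -3.65 in mutant pools 1 to 3. The mutant pools were all lower, with gaps between groups larger than the spread within either (-3.04 ± 0.09 against -3.56 ± 0.10, SD, n = 3 each). The difference of -0.53 had a two-sided exact permutation p of 0.1, the smallest that 3 against 3 can give, and 0.4 after Benjamini-Hochberg adjustment over the 8 ratios. This ratio combines the differences of *Apln* (-0.20) and *Aplnr* (0.32) given above and is not separate from them. The ratio of *Flt4* to *Kdr* was -1.13 ± 0.08 in control and -0.99 ± 0.05 in mutant pools, a difference of 0.13 with the same exact p. Here the groups were barely apart, with control pool 1 at -1.062 and mutant pool 3 at -1.051.

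The other ratios overlapped between groups. That of *Nrp2* to *Nrp1* differed by 0.14 (exact permutation p = 0.2) and that of *Flt1* to *Kdr* by 0.10 (exact permutation p = 0.3). The ratios of *Tie1* to *Tek*, *Angpt2* to *Angpt1*, *Gja5* to *Gja4* and *Vegfa* to *Kdr* differed by 0.06, -0.07, -0.04 and 0.02. That of *Vegfa* to *Kdr*, ligand to receptor, was -0.20 ± 0.15 in control and -0.18 ± 0.06 in mutant pools.

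**Figure D3:**
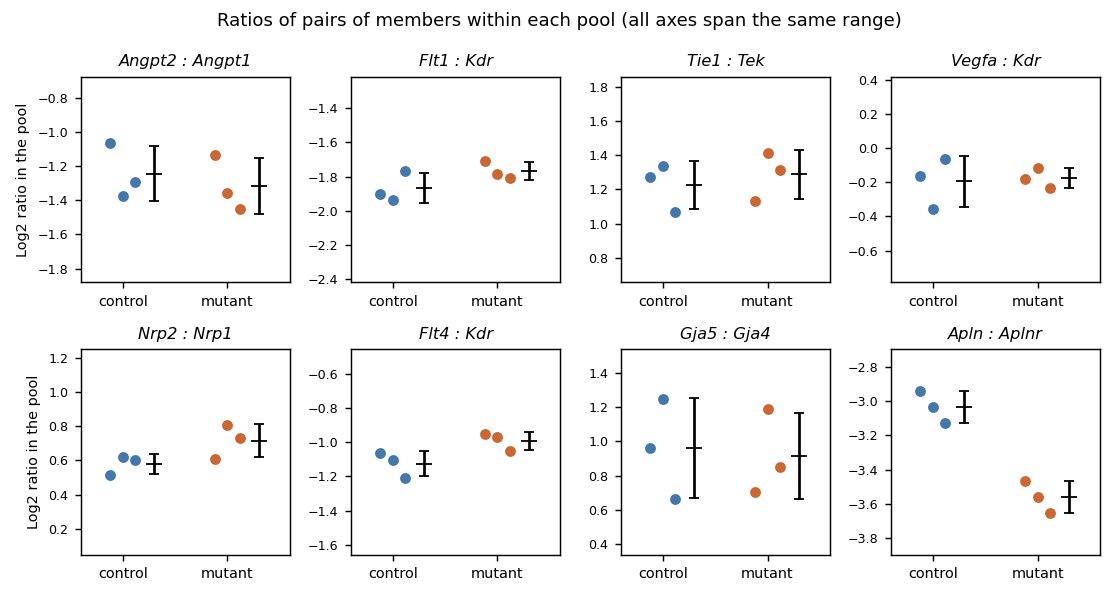
Log2 ratios of 8 pairs of members within each pool (vertical axes, all of the same span). Points are pools, 3 control and 3 mutant, and bars are mean ± SD. The ratio of *Apln* to *Aplnr* is lower in every mutant pool, from -3.47 to -3.65 against -2.94 to -3.13 in control. That of *Flt4* to *Kdr* is higher in every mutant pool, with mutant pool 3 only just above control pool 1.

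Single pools contributed unequally. Control pool 3 had the lowest value of the 6 pools for 19 of the 37 members, control pool 2 for 9 and control pool 1 for 6, while the mutant pools together had the lowest for 3. The highest value was in mutant pool 1 for 15 members, in mutant pool 3 for 7 and in mutant pool 2 for 6. Control pool 3 was nevertheless the highest of the 6 for *Vegfa*, *Nrp2*, *Nrp1* and *Tal1*, so it was not low for every member. Within the groups the median SD of the members on the log2 scale was 0.13 in control and 0.08 in mutant pools, close to 0.12 and 0.09 over all genes tested. Markers of other cell types also set control pool 3 apart. The median deviation from the mean of the 6 pools (log2) was -0.31 there for macrophage markers, against -0.01 to 0.14 in the other pools, and 0.41 for erythroid markers, against -0.26 to 0.05. For epithelial markers it was 0.04, between control pools 1 and 2 (0.21 and 0.34) and the mutant pools (-0.29 to -0.14). Without control pool 3, 16 members were higher at an unadjusted p under 0.05, in a fit where 8.37% of all genes were, and 3 passed the adjusted threshold (*Aplnr*, *Plvap* and *Tie1*), where 2.75% of all genes passed it.

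**Figure D4:**
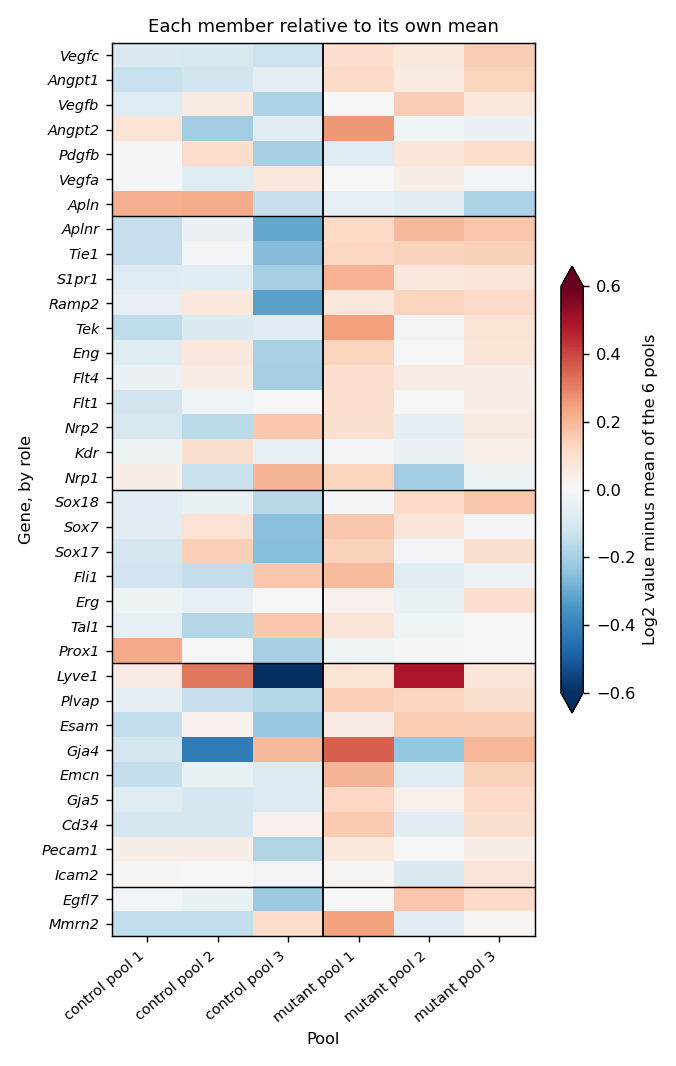
Log2 value of each of 36 members in each pool (columns, 3 control then 3 mutant) minus the mean of the 6 pools, with red above and blue below the mean and rows grouped by role. Control pool 3 is lowest for 19 of the 37 members and mutant pool 1 highest for 15, and *Lyve1* and *Gja4* show the strongest colours within groups.

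A second list of 38 endothelial genes that are not members was described beside them, of which 37 were tested (*Sele* was too low). Of these, 12 were higher (32.4%) and 1 was lower at an unadjusted p under 0.05, 30 had log2 differences above 0, the median was 0.16, and 0 passed the adjusted threshold. *Cdh5*, the VE-cadherin gene of endothelial junctions, was at 3283, 3734 and 3215 in the control pools and at 4018, 3745 and 3994 in the mutant pools, without overlap (log2 difference 0.20, limma adjusted p = 0.172). *Cldn5*, an endothelial tight junction claudin, *Arhgef15* and *Nr2f2*, a venous and mesenchymal nuclear receptor, had log2 differences of 0.29, 0.24 and 0.14 (limma adjusted p 0.17, 0.169 and 0.15). The gene lower in mutant pools was *Car4*, a carbonic anhydrase of specialised lung capillaries that epithelial cells can also express, at 26.5, 12.4 and 25.8 in the control pools and at 6.13, 7.84 and 10.8 in the mutant pools (log2 difference -1.24, limma adjusted p = 0.179).

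Of 49 further genes of angiogenic signalling, 14 were higher (28.6%) and 4 lower (8.16%) at an unadjusted p under 0.05, the median log2 difference was 0.07, and 0 passed the adjusted threshold. *Epas1*, a hypoxia-inducible factor gene that is abundant in endothelium, had a log2 difference of 0.32 (limma adjusted p = 0.0766). *Rspo3*, a secreted enhancer of WNT signals, and *Sema3a*, a ligand of NRP1, were higher in mutant pools by 0.50 and 0.35 (limma adjusted p 0.132 and 0.155). *Sema3c*, another secreted semaphorin, and *Cxcr4*, the CXCL12 receptor, were lower, with differences of -0.20 and -0.28 (limma adjusted p 0.118 and 0.15). Over all genes tested 6.67% were higher and 6.89% lower at an unadjusted p under 0.05, so the lower share of this list (8.16%) was near that of all genes. The members at that threshold were all to the higher side.

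Markers of other lung cell types also differed between the same pools. Of 20 epithelial markers, the cell type in which ShhCre acts, 18 were lower and 1 higher at an unadjusted p under 0.05 (*Krt19*, a keratin gene that is also on the mesothelial list), and 6 fell at the adjusted threshold (median log2 difference -0.41), and their summed normalized count was 22045 to 27572 in control and 18394 to 19477 in mutant pools. *Cldn6*, an embryonic epithelial claudin, fell by 0.71 on the log2 scale (limma adjusted p = 0.012), and *Etv5*, a factor downstream of FGF signals in the distal epithelium, had a difference of -0.20 (limma adjusted p = 0.366). Of 12 mesenchymal markers 6 were higher at an unadjusted p and 4 rose at the adjusted threshold (median 0.22), including the collagen genes *Col1a2* (0.34, limma adjusted p = 0.013) and *Col3a1* (0.26, limma adjusted p = 0.047), and the list summed to 104513 to 112007 in control and 127790 to 135272 in mutant pools.

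The other lists were as follows. Of 8 mesothelial markers 5 were higher at an unadjusted p, 1 of them past the adjusted threshold (median 0.20), with *Aldh1a2* and *Upk3b* at 0.16 and 0.20, and of 12 markers of smooth muscle and pericytes 4 were higher (median 0.18), with *Notch3* and *Pdgfrb* at -0.07 and 0.05. The 12 macrophage markers all had log2 differences above 0 (median 0.14) with 0 at an unadjusted p under 0.05, and *Mrc1* and *Csf1r* were at 0.11 and 0.12. The 9 erythroid markers tested had a median of -0.01 and 0 at an unadjusted p under 0.05, with *Hbb-y* and *Hba-x*, embryonic globin genes, at 0.07 and -0.0046. Of 10 neural crest and 10 cardiac markers 2 and 3 were lower at an unadjusted p under 0.05, where 6.89% of all genes tested were. Their medians were -0.02 and -0.24, with *Ednrb* and *Erbb3* at 0.27 and -0.03 and *Actc1* and *Ryr2* at -0.40 and 0.09. Summed normalized counts did not overlap between groups for mesothelial markers (8319 to 9058 in control, 9607 to 10279 in mutant pools), smooth muscle and pericyte markers (20892 to 21841 and 22317 to 23641) and cardiac markers (1558 to 1700 and 1312 to 1370). They overlapped for macrophage markers (2603 to 3738 and 3374 to 3631), erythroid markers (98759 to 128487 and 98410 to 122109) and neural crest markers (5523 to 6705 and 6155 to 6867). The median of the members, 0.14, thus lay on the side of the mesenchymal, mesothelial, mural and macrophage lists and apart from that of the epithelial list. The part that these lists had in the members' differences was not tested.

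**Figure D5:**
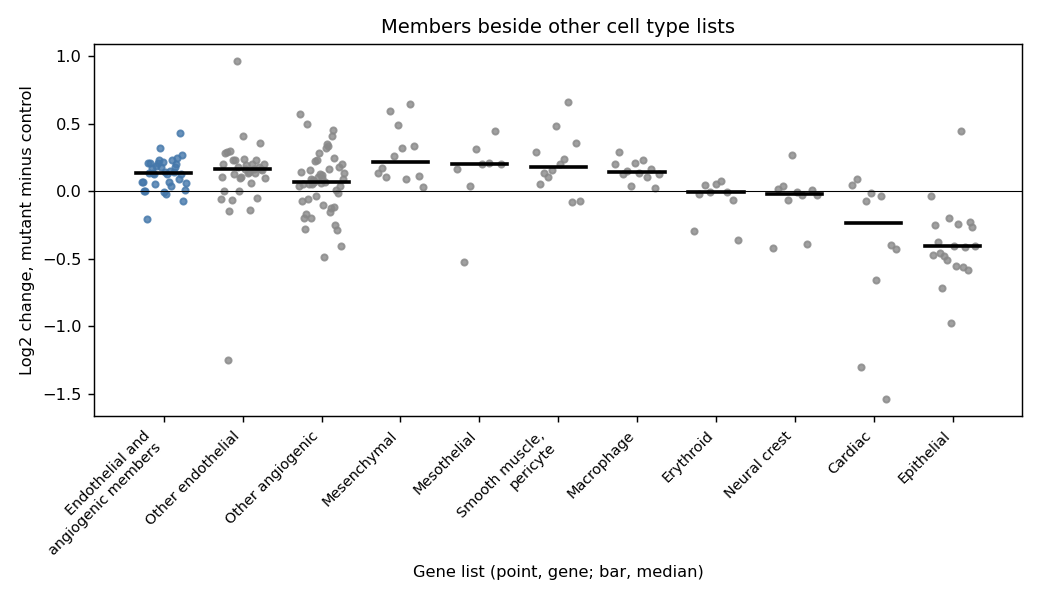
Log2 difference between mutant and control pools (vertical axis) of the members and of 10 other gene lists. Each point is a gene tested and each bar is the median of a list. The medians of the members (0.14), the other endothelial genes (0.16) and the mesenchymal markers (0.22) lie above 0, that of the erythroid markers at -0.01 and that of the epithelial markers at -0.41.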

How the data were processed

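RNA of 6 pools of whole mouse lungs (3 control, 3 mutant) was sequenced. Per the labels, the submitters' processing notes name Trim Galore, HISAT2, featureCounts, DESeq2 and mm10, and versions were not given in the sources used here. The deposited values were a signal, read counts divided by a size factor per library by the authors. The deposited table also holds the authors' own comparison columns, as log2 fold changes, test statistics (a score) and p-values, which were not used. Of the deposited symbols 27 read as dates, none of them a member.

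The filter kept genes at 1 or more in 3 or more libraries, and log2(normalized count + 1) was tested with limma 3.58.1 in R 4.3.3 (lmFit, eBayes with trend, Benjamini-Hochberg adjustment over all 17168 genes), so that fold changes of low genes are understated. Whole reads were recovered from all 6 libraries (100% of values within 0.01 of a whole multiple of the value of 1 read) and tested with edgeR 4.0.16 (quasi-likelihood) as an alternative, in which 79 of 14670 genes passed an adjusted p of 0.05. Ratios within pools were tested by two-sided exact permutation. Depth was even between libraries, and the spread between pools includes counting error, which is relatively larger for low genes. Alternatives were fits without trend, upper-quartile scaling, other filters, a pseudocount of 0.1, a replicate block, edgeR and leaving out each pool. Scripts were tested on simulated data.

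All 37 members may be named. Values in every pool are given for members with an unadjusted p under 0.05 and, in each role, for the member with the highest mean and that with the largest absolute difference. From the other endothelial and angiogenic lists the 5 genes of lowest p are named, and from each cell type list the 2 of highest mean. *Pdgfra* and *Pdgfrb* are in the angiogenic and in marker lists, and *Krt19* is in 2 marker lists. The members and lists were chosen with earlier results of these data known. Promoter windows are from RefSeq (GRCm38.p6), and gene coordinates from GENCODE M21 (GRCm38). Protein sequences were not used here.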

Additional observations from a re-analysis of the deposited data

How the results depend on the processing

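The 13 members higher at an unadjusted p under 0.05 kept a log2 difference above 0 in every fit, and the median over the members stayed between 0.11 and 0.17. Their count was 10 to 16 in the fits on all pools and 7 (without mutant pool 3) to 19 (without control pool 2) when a pool was left out. The share of all genes higher at that threshold also varied, from 5.2% to 7.66% on all pools, 4.28% without mutant pool 3 and 8.11% without control pool 2. The count was 6 at an unadjusted p under 0.01. Members passing the adjusted threshold numbered 0, with 1 (*Plvap*) under upper-quartile scaling and 0 to 3 when a pool was left out. The count of members lower at an unadjusted p was 0 to 1, the 1 being *Apln* without control pool 3. The count of all genes called was 86, and was 8 without trend, 18 without a filter and 1 to 468 when a pool was left out, so that the adjusted calls depended on which pools entered. Other endothelial genes passing the adjusted threshold numbered 0 to 1 when a pool was left out (*Cdh5*, without control pool 2), and those lower at an unadjusted p were 1, 2 without trend, 2 without a filter, 0 with at least 10 counts in every library and 1 to 3 when a pool was left out. For the further angiogenic genes, 0 to 5 passed the adjusted threshold when a pool was left out (4 without control pool 2, 5 without control pool 3), those higher at an unadjusted p were 14, 6 without trend, 8 without a filter and 7 to 20 when a pool was left out, and those lower 2 to 6. The cause of these movements was not tested.

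Leaving out a pool turned the direction of 11 members with differences near 0, whose log2 differences then ran over these ranges: *Vegfa* -0.026 to 0.046, *Pdgfb* -0.013 to 0.14, *Kdr* -0.036 to 0.036, *Nrp1* -0.16 to 0.016, *Nrp2* -0.0006 to 0.16, *Fli1* -0.018 to 0.16, *Etv2* -0.59 to 0.40, *Tal1* -0.0395 to 0.13, *Prox1* -0.13 to 0.086, *Pecam1* -0.0014 to 0.11 and *Icam2* -0.033 to 0.049. The deviations of same-numbered pools had correlations of -0.02, 0.10 and 0.03, against -0.11 to 0.08 between differently numbered pools. With 3 pools to a group these cannot show whether same-numbered pools shared a litter or a day. With a replicate block, 71 genes and 0 members passed the adjusted threshold and 16 members were higher at an unadjusted p. At this depth no difference of *Etv2* was detectable.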
